A study of Caenorhabditis elegans with 8 samples.

Results

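The transcripts described here are those of 10 genes for fatty acid desaturases and elongases of Caenorhabditis elegans, namely fat-1 to fat-7, elo-1, elo-2 and elo-5, which were chosen by name from a table of 20871 genes. All 10 were present in the table under their sequence names. They were measured by RNA sequencing of whole worms, in 4 samples fed HT115 Escherichia coli with the empty vector L4440 (EV) and 4 samples fed HT115 bacteria expressing double-stranded RNA against mtch-1, written mtch-1(RNAi). Worms ate these bacteria from hatching onward, at 20 °C on plates with 1 mM IPTG, and were collected as day 3 adults. Induction of the bacteria had taken 3 h at 37 °C in 5 mM IPTG. Each sample pooled about 200 adults and gave total RNA. The sources used here do not give the worm strain, any selection of RNA or the strandedness of the libraries.

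Fatty acid desaturases place double bonds in acyl chains, and elongases add carbon units to them. In C. elegans, which makes its polyunsaturated fatty acids without a dietary supply, the enzymes form a chain of steps. The elongase ELO-2 lengthens palmitate to stearate, the delta-9 desaturases FAT-6 and FAT-7 turn stearate into oleate, and FAT-5 acts on palmitate. FAT-2 makes linoleate from oleate, FAT-1 adds the omega-3 double bond, FAT-3 and FAT-4 add double bonds nearer to the carboxyl end, and ELO-1 lengthens the products of FAT-3. ELO-5 acts apart from this chain, in the synthesis of branched-chain fatty acids.

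The deposited table gave 18710833 to 23608608 counts per sample. mtch-1, the targeted gene, which encodes a mitochondrial carrier homolog, had 264, 287, 275 and 291 CPM in EV replicates 1 to 4 and 50.5, 58.0, 34.3 and 46.1 CPM in mtch-1(RNAi) replicates 1 to 4. The groups did not overlap, and mtch-1 fell by 83.1% (edgeR adjusted p = 8.62e-08). CPM is the count scaled by the TMM effective library size, and its value for 1 gene can be compared between samples. In whole worms, fewer cells of a type and less RNA per cell cannot be told apart. Markers of the worm's tissues were followed for this reason. Of 10 intestinal markers, 1 was higher (mtl-2) and 0 were lower, and their summed level was 1848 to 2187 CPM in EV and 1673 to 1900 CPM in mtch-1(RNAi). With the replicate block described below, 5 of them were lower and 1 was higher. Germline markers summed to 6032 to 6449 CPM in EV and to 5160 to 5529 CPM in mtch-1(RNAi), and 7 of 10 fell. In the hypodermal list 1 of 10 markers rose (dpy-7), with sums of 420 to 461 and 429 to 474 CPM, and 0 of 10 body wall muscle markers passed the test, or 6 as higher with the block, with sums of 806 to 998 and 827 to 1246 CPM. Of 6 tested embryo markers pal-1 fell, with sums of 308 to 334 and 268 to 291 CPM, and sperm markers summed to at most 1.73 CPM. Of 10 listed embryo markers 9 were in the table, and of 10 sperm markers 6 were in it and 1 was tested. Over all 13252 genes tested, 13% fell and 10% rose, or 17.1% and 15% with the block. The part of the marker differences in the results below was not tested.

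All 10 genes passed the filter on low counts. After mtch-1(RNAi), 6 fell (fat-2, fat-6, fat-7, elo-1, elo-2 and elo-5) and 1 rose (fat-3), against 13% of the 13252 genes tested that fell and 10% that rose. The same 7 genes showed no overlap between the groups, against 14.2% of tested genes that lay lower without overlap and 11.7% that lay higher. The median log2 fold change of the 10 was -0.26, and that of all tested genes was 0.01. Calls are adjusted p-values under 0.05 in edgeR's quasi-likelihood test over all genes tested. The size of the change differed widely within the family, from -1.79 for fat-7 to 0.57 for fat-3 on the log2 scale. Samples that carried the same replicate number in the 2 groups deviated together, and a fit with that number as a block, called the replicate block here, added 2 calls. These were fat-5 as lower and fat-1 as higher, which made 7 lower and 2 higher, where 17.1% and 15% of all tested genes were called. After a regression of log2 fold change on gene length and abundance was subtracted, called detrending here, 3 were lower (fat-7, elo-2 and elo-5) and 2 higher (fat-1 and fat-3). Over all 13252 tested genes, 1400 were lower and 1361 higher after detrending.

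**Figure D1:**
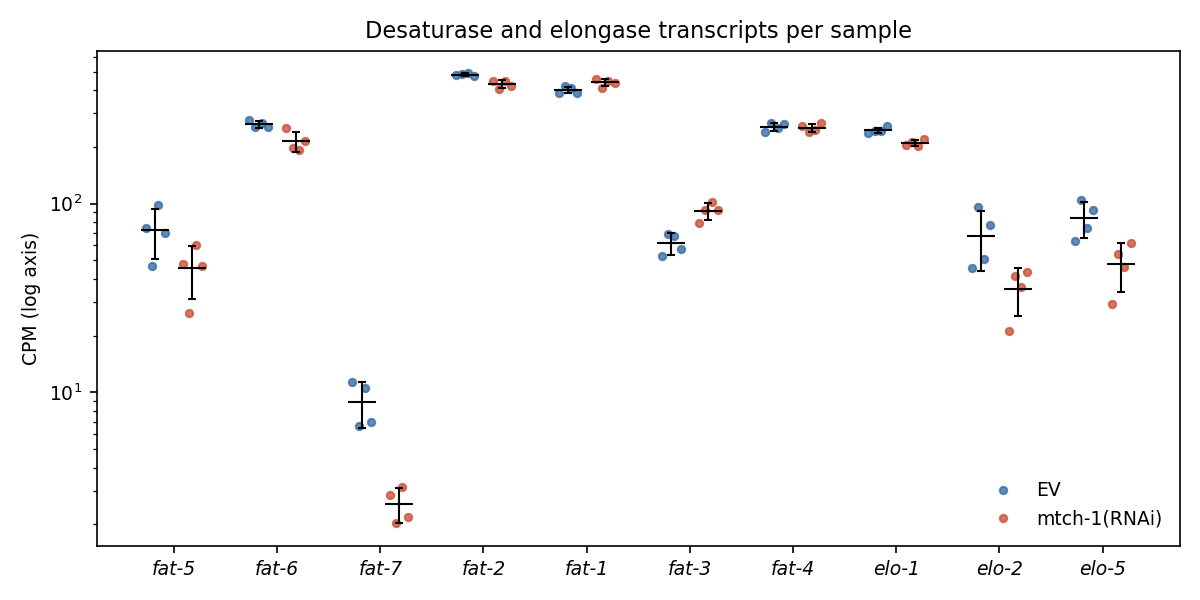
CPM of the 10 genes on a log axis, with 1 point per sample, a horizontal line at the group mean and bars of 1 SD (n = 4 per group). fat-7 had the lowest CPM in both groups and lay lower in every mtch-1(RNAi) sample, whereas the fat-4 points of the 2 groups overlapped.

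The delta-9 desaturase genes, which make monounsaturated fatty acids, all had lower means after mtch-1(RNAi), with very unequal changes. fat-7 (F10D2.9, chromosome V, 7151353 to 7153146, minus strand) had 11.4, 6.67, 10.6 and 6.95 CPM in EV replicates 1 to 4 and 2.86, 2.04, 3.17 and 2.20 CPM in mtch-1(RNAi) replicates 1 to 4. Every mtch-1(RNAi) sample lay below every EV sample, and EV replicates 1 and 3 were well above EV replicates 2 and 4. These levels rest on 121 to 230 reads per EV sample and 46 to 68 reads per mtch-1(RNAi) sample. fat-7 fell by 71.1%, or by 1.79 on the log2 scale (SE 0.22; adjusted p = 1.83e-04 in edgeR). This ranked as number 10 by size among the 1728 genes that fell.

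fat-6 (VZK822L.1, chromosome IV, 11913692 to 11915687, minus strand), whose enzyme carries out the same reaction as FAT-7, stood at 278, 253, 268 and 253 CPM in EV and at 251, 198, 192 and 214 CPM in mtch-1(RNAi). The highest mtch-1(RNAi) sample, replicate 1, came close to the lowest EV sample without reaching it. fat-6 fell by 18.6% (log2 fold change -0.30, SE 0.07, adjusted p = 0.0118). After detrending, fat-6 did not pass (log2 fold change -0.19, adjusted p = 0.0826). fat-7 supplied 3.25% ± 0.730 (SD, n = 4) of the counts of fat-6 and fat-7 together in EV, and 1.20% ± 0.290 of them after mtch-1(RNAi). Reads shared between these closely related genes, if any, could blur their separate values, and how such reads were counted is not given in the sources used here. The region in which fat-6 reads were counted is also not certain, as its deposited length of 3488 bases exceeds its 1166 bases of annotated exons.

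fat-5 (W06D12.3, chromosome V, 17725004 to 17726818, plus strand), the palmitoyl-CoA desaturase gene, had 73.9, 46.9, 98.7 and 69.8 CPM in EV and 47.8, 26.5, 60.6 and 46.8 CPM in mtch-1(RNAi). The groups overlapped, since mtch-1(RNAi) replicates 1 and 3 lay above EV replicate 2, yet within each replicate number the mtch-1(RNAi) sample was the lower of the pair. The log2 ratios of the 4 pairs were -0.63, -0.82, -0.70 and -0.58. Accordingly the change missed the threshold without the block (log2 fold change -0.67, SE 0.23, adjusted p = 0.0521) and passed it with the block (-0.68, SE 0.06, adjusted p = 4.46e-08). Without the block it also passed when EV replicate 2 (adjusted p = 0.0186) or mtch-1(RNAi) replicate 3 (0.0240) was left out, or no count filter was set (0.0173). The deposited gene length of fat-5, 2335 bases, exceeds the 1104 bases of annotated exons, and an exon of twk-42 on the opposite strand overlaps fat-5. Strand use in counting is not given, so whether reads of the 2 genes were told apart there is not known. The counts assigned to twk-42 were 1.91 to 3.75 CPM.

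fat-2 and fat-1 are neighbours on chromosome IV and act one after the other. fat-2 (W02A2.1, 13323873 to 13326395, plus strand) encodes the delta-12 desaturase and had 480, 483, 490 and 472 CPM in EV and 448, 405, 444 and 421 CPM in mtch-1(RNAi). The groups were apart, and fat-2 fell by 10.7% (log2 fold change -0.16, SE 0.04, adjusted p = 0.0202). This small fall did not pass without mtch-1(RNAi) replicate 2 (adjusted p = 0.0642) or 4 (0.0644), nor after detrending (log2 fold change -0.04, adjusted p = 0.590).

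fat-1 (Y67H2A.8, 13315644 to 13318811, plus strand), the omega-3 desaturase gene, had 386, 420, 409 and 387 CPM in EV and 458, 411, 448 and 435 CPM in mtch-1(RNAi). Replicate 2 was the highest EV sample and the lowest mtch-1(RNAi) sample, and those 2 samples made the groups overlap. Its log2 fold change was 0.13 (SE 0.05, adjusted p = 0.0709), which missed the threshold without the block and passed it with the block (0.13, adjusted p = 0.0490). It also passed without EV replicate 2 (adjusted p = 0.0421) or mtch-1(RNAi) replicate 2 (0.0483), with upper quartile scaling (0.0472), with the stricter count filter (0.0269) and after detrending (0.25, adjusted p = 0.00373).

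fat-3 (W08D2.4, chromosome IV, 9803023 to 9806119, plus strand), the delta-6 desaturase gene, was the 1 member that rose. Its levels were 52.7, 69.2, 67.6 and 57.4 CPM in EV and 79.3, 92.7, 102 and 92.8 CPM in mtch-1(RNAi). The groups did not overlap. fat-3 rose by 48.8% (log2 fold change 0.57, SE 0.09, adjusted p = 0.00106), and all 16 alternative analyses called it, with log2 fold changes from 0.51 to 0.64.

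fat-4 (T13F2.1, chromosome IV, 9799429 to 9802226, plus strand), the delta-5 desaturase gene, lies 796 bases upstream of fat-3 on the same strand. It had 238, 266, 250 and 263 CPM in EV and 256, 240, 246 and 267 CPM in mtch-1(RNAi), so the groups covered nearly the same range. The log2 fold change was -0.01 (SE 0.05, adjusted p = 0.899), and its sign turned under 7 of the alternatives, none of which called it.

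**Figure D2:**
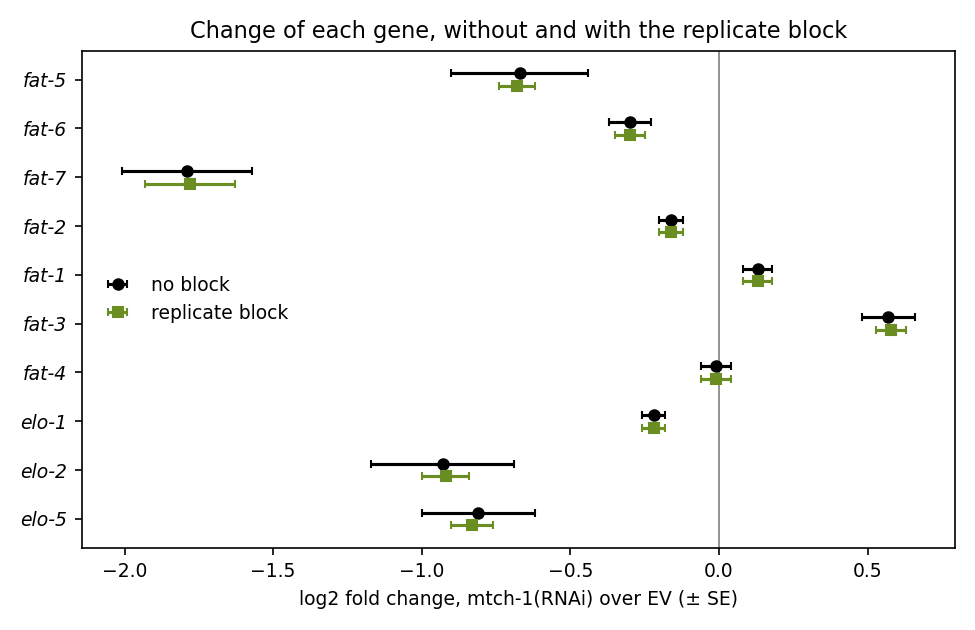
Log2 fold change of each gene in mtch-1(RNAi) over EV with its standard error, from edgeR without (circles) and with (squares) the replicate number as a block, 4 samples per group. The block narrowed the errors of fat-3, fat-5, fat-6, fat-7, elo-2 and elo-5. It left the estimates nearly where they were, from 0.57 or 0.58 for fat-3 to -1.79 or -1.78 for fat-7.

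Among the elongase genes, elo-2 and elo-5 fell by nearly as much as each other and elo-1 by less. elo-2 (F11E6.5, chromosome IV, 17466062 to 17467408, minus strand), the palmitate elongase gene, had 45.4, 96.5, 51.2 and 77.3 CPM in EV and 21.1, 41.2, 36.1 and 43.2 CPM in mtch-1(RNAi). The groups were separated by a narrow gap, with EV replicates 1 and 3 close to mtch-1(RNAi) replicates 2 and 4. elo-2 fell by 47.7% (log2 fold change -0.93, SE 0.24, adjusted p = 0.0149), and with the block the standard error shrank to 0.08 (log2 fold change -0.92, adjusted p = 2.05e-07). Over 8 analyses that each left out 1 sample, the adjusted p of elo-2 ran from 0.00729 to 0.0492.

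elo-5 (F41H10.7, chromosome IV, 5374616 to 5377117, minus strand), which makes branched-chain fatty acids, had 63.7, 104, 74.5 and 92.1 CPM in EV and 29.4, 53.9, 45.9 and 61.8 CPM in mtch-1(RNAi). Here too the groups were separated only narrowly, between EV replicate 1 and mtch-1(RNAi) replicate 4. elo-5 fell by 43.0% (log2 fold change -0.81, SE 0.19, adjusted p = 0.00984), and the 4 pairs gave log2 ratios of -1.11, -0.95, -0.70 and -0.58. An exon of F41H10.3 on the opposite strand overlaps elo-5. As strand use in counting is not given, whether their reads were told apart in the overlap is not known. F41H10.3 itself stood at 147 to 181 CPM with a log2 fold change of 0.10 (adjusted p = 0.208).

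elo-1 (F56H11.4, chromosome IV, 9526366 to 9528336, plus strand), the elongase gene of the polyunsaturated chain, was among the least variable members. It had 237, 241, 243 and 256 CPM in EV and 204, 211, 203 and 219 CPM in mtch-1(RNAi), with a clear gap between the groups. elo-1 fell by 14.3% (log2 fold change -0.22, SE 0.04, adjusted p = 0.00270). After detrending it did not pass (log2 fold change -0.12, adjusted p = 0.0660).

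The spread between samples of a group differed from gene to gene, and for fat-5, fat-7, elo-2 and elo-5 it followed the replicate numbers. The block also lowered the SE of fat-3 from 0.09 to 0.05 and that of fat-6 from 0.07 to 0.05. For fat-1, fat-2, fat-4 and elo-1 the block left the SE at 0.05, 0.04, 0.05 and 0.04. The coefficient of variation within EV was 35.1% for elo-2, 29.3% for fat-5, 27.5% for fat-7, 21.5% for elo-5 and 12.9% for fat-3, and 1.57% to 5.03% for the other members. Within mtch-1(RNAi), that of fat-6 was 12.3%. In both groups, replicates 1 and 3 had higher fat-7 and fat-5 levels and lower elo-2 and elo-5 levels than replicates 2 and 4. The labels name no batch, plate or day that the numbers stand for, and the source of this pattern was not tested. Within every pair, fat-5, fat-7, elo-2 and elo-5 were lower in mtch-1(RNAi), as were fat-2, fat-6 and elo-1.

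**Figure D3:**
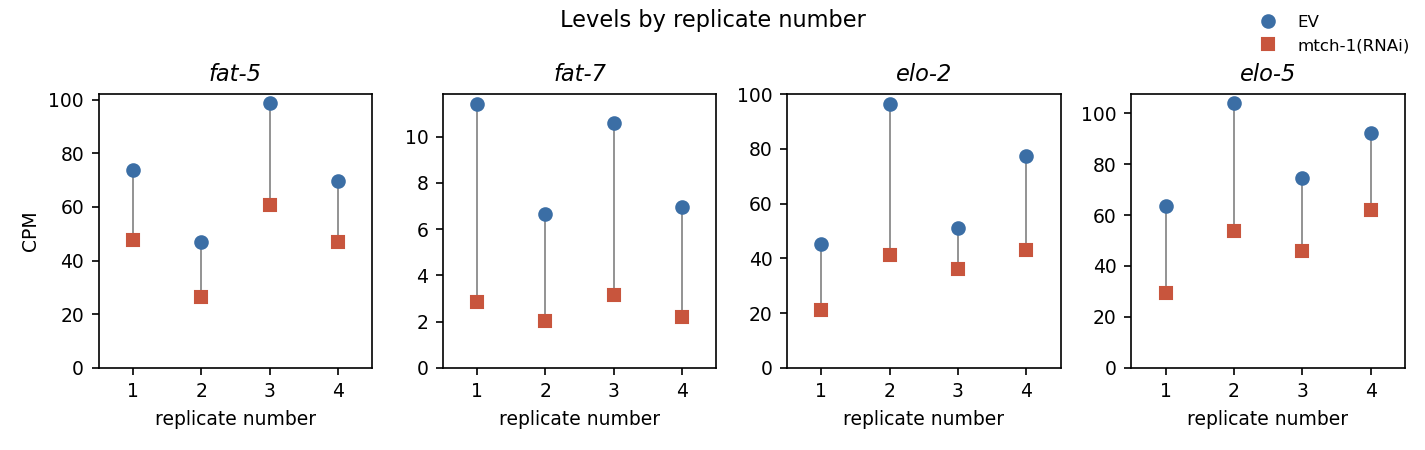
CPM of fat-5, fat-7, elo-2 and elo-5 (linear axes from 0) by replicate number, with EV as circles and mtch-1(RNAi) as squares and a line joining samples of the same number. fat-5 and fat-7 were highest in numbers 1 and 3, and elo-2 and elo-5 in numbers 2 and 4. For each gene the mtch-1(RNAi) sample was the lower in every pair.

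Ratios between neighbouring or related genes were taken within each sample, which removes the library scaling. These 5 ratios were picked after the values were known and are given as a description, without p-values. The log2 ratio of fat-3 to fat-4 was -2.05 ± 0.16 in EV and -1.46 ± 0.19 after mtch-1(RNAi), each with the SD of 4 samples, a difference of 0.59. fat-1 to fat-2 moved from -0.27 ± 0.05 to 0.03 ± 0.01, so that the genes went from unequal to nearly equal read counts. fat-6 to fat-7 moved from 4.92 ± 0.34 to 6.40 ± 0.33, a difference of 1.47. For these 3 ratios the groups did not overlap.

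The groups overlapped for the other 2 ratios, although each pair of same-numbered samples differed in 1 direction. elo-6 lies 9511 bases from elo-5, with 3 protein-coding genes between them. elo-5 to elo-6 went from -0.91 ± 0.22 to -1.37 ± 0.30, with pair differences of -0.61, -0.30, -0.42 and -0.51 on the log2 scale. elo-1 to elo-2 went from 1.92 ± 0.49 to 2.61 ± 0.44, with pair differences of 0.89, 1.04, 0.24 and 0.61.

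**Figure D4:**
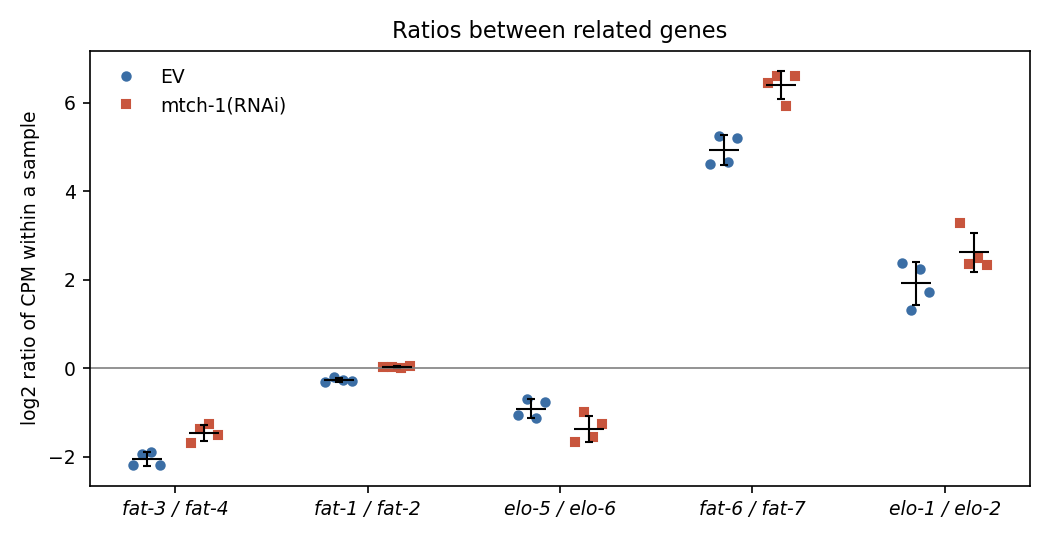
Log2 ratio of the CPM of 2 related genes within each sample (circles EV, squares mtch-1(RNAi)), with the mean and SD of 4 samples. The groups are apart for fat-3 to fat-4, fat-1 to fat-2 and fat-6 to fat-7, where the means differ by 0.59, 0.29 and 1.47.

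Levels of different genes were compared as CPM per kilobase of annotated exon. In EV the order began with fat-2 (383 ± 6.03), fat-1 (283 ± 11.8), elo-1 (230 ± 7.81), fat-6 (226 ± 10.4) and fat-4 (165 ± 8.31 CPM per kilobase; SD, n = 4). elo-1 and fat-6 overlapped, and the other neighbours in this upper part of the order were apart in every EV sample. elo-5 (90.6 ± 19.5), fat-5 (65.5 ± 19.2), elo-2 (65.2 ± 22.9) and fat-3 (41.4 ± 5.35) followed with overlapping ranges between neighbours, and fat-7 stood far below at 7.92 ± 2.18 CPM per kilobase. In mtch-1(RNAi), fat-2 (342 ± 16) and fat-1 (309 ± 14.3) overlapped. fat-3 moved from the ninth to the sixth place at 61.5 ± 6.37 CPM per kilobase, and elo-2 (34.1 ± 9.63) took the ninth place, above fat-7 (2.28 ± 0.478).

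This order depends on the gene length used. The deposited length of fat-6, 3488 bases, is longer than its deposited span of 1998 bases and than the 1166 bases of annotated exons, and the authors' FPKM of fat-6, 72.0 ± 3.24 in EV, is low in proportion. By the authors' FPKM in EV, fat-6 lay below elo-5 (83.1 ± 17.9) and fat-4 (125 ± 6.43), whereas per annotated length it lay above both. The deposited lengths of fat-5 and fat-4 (1945 against 1540 bases of annotated exons) were also longer. For fat-4, fat-5 and fat-6 the region in which reads were counted is therefore not certain. This limits their CPM, fold changes and ratios as well as their place in the order. By the authors' FPKM, fat-5 (29.6 ± 8.71 in EV and 18.5 ± 5.72 in mtch-1(RNAi)) took the ninth place in both groups, below fat-3 (39.4 ± 5.14 and 58.4 ± 6.13) and elo-2 (61.8 ± 21.7 and 32.2 ± 9.12). The 10 genes together made 1866 to 1985 CPM in EV and 1683 to 1804 CPM in mtch-1(RNAi). As a share of all counts, without TMM scaling, the groups overlapped, at 0.182% to 0.196% in EV and 0.171% to 0.188% in mtch-1(RNAi). Of the summed CPM, fat-1, fat-2, fat-4, fat-6 and elo-1 supplied 84.8% ± 1.33 in EV and 87.4% ± 1.78 in mtch-1(RNAi), so the genes with the largest falls carried little of it.

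In the authors' deposited table, 7 of the 10 genes had an adjusted p under 0.05. DESeq2, run here on the deposited counts, called 1882 genes lower and 1394 higher over all 20871 genes. The authors' log2 fold changes were -1.80 for fat-7, -0.94 for elo-2, -0.81 for elo-5 and 0.57 for fat-3. fat-5 (adjusted p = 0.112), fat-1 (0.0548) and fat-4 (0.861) did not pass in the authors' deposited table.

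The wider pathway was read from 48 other genes in 6 lists, of which 46 were tested. After mtch-1(RNAi), 9 fell and 1 rose, beside the 13% and 10% of all tested genes given above, and the median log2 fold change was -0.10. With the replicate block 14 fell and 3 rose, where 17.1% and 15% of all tested genes were called. Of the other elongase genes, elo-3, elo-4, elo-6 and elo-9 were tested and 0 passed. elo-6, which acts beside elo-5 on branched chains, had 133, 169, 164 and 156 CPM in EV and 93.6, 107, 135 and 148 CPM in mtch-1(RNAi), with overlap between the groups. Its log2 fold change was -0.36 (SE 0.12, adjusted p = 0.0508), and it passed with the block (-0.37, adjusted p = 2.98e-04). elo-6 also passed in DESeq2 (0.0144) and limma-voom (0.0454), with DESeq2 size factors (0.0484), with no count filter (0.0220), and without EV replicate 1 (0.0332) or mtch-1(RNAi) replicate 3 (0.0413) or 4 (0.0172). elo-7, which lies 1610 bases from elo-1, and elo-8 were too low to be tested.

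In fatty acid synthesis and the elongation cycle, 1 of 8 genes changed, where 13% of all tested genes fell and 10% rose. pod-2, which encodes acetyl-CoA carboxylase, averaged 425 ± 54.3 CPM in EV and 354 ± 12.7 CPM after mtch-1(RNAi), a called fall (log2 fold change -0.26, adjusted p = 0.0271). That call was lost in 5 of 8 analyses without 1 sample, namely EV replicates 2 and 4 and mtch-1(RNAi) replicates 1, 2 and 3 (adjusted p = 0.0510 to 0.0904). It was also lost with the stricter count filter (0.0515) and after detrending (0.0899). The fatty acid synthase gene fasn-1 (0.10, adjusted p = 0.293) and the elongation partners let-767 (-0.04, adjusted p = 0.529) and hpo-8 (-0.12, adjusted p = 0.216) did not pass. Of 3 genes for the electron supply of desaturases, the cytochrome b5 gene cytb-5.2 missed the threshold (0.15, adjusted p = 0.0582) and passed with the block (0.15, 0.0315) and after detrending (0.20, 0.0156).

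In the list of 14 genes for desaturase regulators and membrane fluidity, 3 fell and 1 rose, with a median log2 fold change of -0.10. Over all tested genes 13% fell and 10% rose. With the block 4 fell and 1 rose, where 17.1% and 15% of all tested genes were called. The call added by the block was tcer-1 as lower (-0.13, adjusted p = 0.0468). acs-13, which encodes an acyl-CoA synthetase, fell from 741 ± 50.7 CPM in EV to 525 ± 20.1 CPM (log2 fold change -0.50, adjusted p = 1.01e-04). iglr-2, whose protein works with the membrane fluidity sensor PAQR-2, fell from 193 ± 7.87 to 152 ± 5.05 CPM (-0.34, adjusted p = 2.32e-04). scp-1, which encodes the SREBP cleavage activating protein homolog, fell from 94.2 ± 5.06 to 74.1 ± 4.28 CPM (-0.35, adjusted p = 9.18e-04).

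The nuclear receptor gene nhr-49 is a known activator of fat-5, fat-6 and fat-7. It rose slightly, from 102 ± 2.53 to 112 ± 3.21 CPM (0.13, SE 0.04, adjusted p = 0.0309), whereas fat-6 and fat-7 fell. A link between nhr-49 and these falls was not tested. The small rise of nhr-49 did not pass with no count filter (adjusted p = 0.0528), nor when mtch-1(RNAi) replicate 1 (0.0911), EV replicate 3 (0.0639) or EV replicate 2 (0.0517) was left out. nhr-80, sbp-1 and mdt-15, also known regulators of these desaturase genes, did not pass. nhr-80, a nuclear receptor gene, was at -0.09 (SE 0.17, adjusted p = 0.756), sbp-1, the SREBP homolog gene, at -0.19 (SE 0.12, adjusted p = 0.288), and mdt-15, a Mediator subunit gene, at -0.10 (SE 0.07, adjusted p = 0.309) on the log2 scale.

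Precursor genes for branched-chain fatty acids, the substrates of ELO-5, fell in 2 of 5 cases, against 13% of all tested genes. dld-1, the dihydrolipoyl dehydrogenase gene that other mitochondrial complexes also use, fell from 311 ± 17.0 to 222 ± 13.5 CPM (-0.48, SE 0.05, adjusted p = 1.02e-04). bckd-1A, a branched-chain keto acid dehydrogenase subunit gene, fell from 117 ± 5.73 to 92.4 ± 3.12 CPM (-0.35, adjusted p = 3.26e-04). acs-1, the acyl-CoA synthetase gene of branched chains, missed the threshold (-0.30, adjusted p = 0.0561), passed with the block (-0.31, 2.43e-04) and did not pass after detrending (-0.24, 0.125).

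In complex lipid assembly 3 of 12 genes fell and 0 rose, or 5 and 1 with the block, which added cept-1 and pcyt-1 as lower and acs-22 as higher. Over all tested genes 13% fell and 10% rose, or 17.1% and 15% with the block. lpin-1, which encodes a phosphatidate phosphatase, fell from 208 ± 10.4 CPM in EV to 169 ± 9.61 CPM (log2 fold change -0.30, adjusted p = 0.00152). pmt-2, a phosphoethanolamine methyltransferase gene, fell from 140 ± 14.9 to 103 ± 20.5 CPM (-0.45, adjusted p = 0.0201), a call lost without EV replicate 2 (0.0553) or 4 (0.0624). sams-1, the S-adenosylmethionine synthetase gene, had 65.5, 119, 87.7 and 121 CPM in EV and 25.9, 58.6, 58.9 and 81.7 CPM in mtch-1(RNAi), and it was lower in all 4 pairs. It passed narrowly (-0.81, SE 0.27, adjusted p = 0.0491, or 8.94e-07 with the block). Of the 8 analyses without 1 sample, only those without EV replicate 1 and without mtch-1(RNAi) replicate 4 called it, and the adjusted p of the 8 ran from 0.0229 to 0.139. It did not pass in DESeq2 (0.111), with upper quartile scaling (0.0612), with the stricter count filter (0.0635) or after detrending (0.0621). Within each group sams-1 was lowest in replicate 1.

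**Figure D5:**
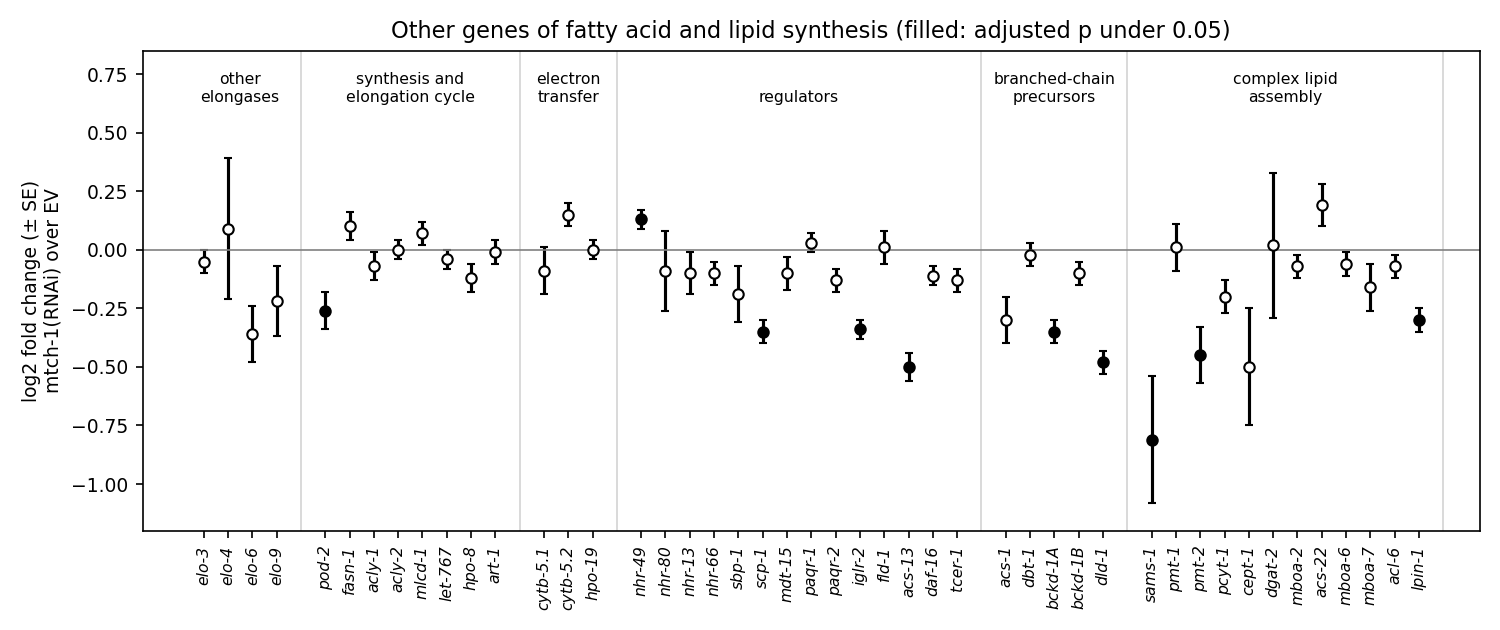
Log2 fold change with its standard error of the 46 tested genes of 6 related lists, with filled points for adjusted p under 0.05 without the block. 9 filled points lie below 0 and 1, nhr-49, above, and elo-4 and dgat-2 are among those with the widest errors.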

How the data were processed

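RNA sequencing counts of 8 whole-worm samples were analysed. The submitters' processing notes name the WBcel235 build and the tools DESeq2, featureCounts 1.5.0-p3 and HISAT2 2.0.5, and the sources used here give no settings. The authors deposited whole-number counts per gene, a normalized signal (count over 1 size factor per sample), FPKM values, and log2 fold changes and p-values, with gene lengths in bases. FPKM was used for levels only, and tests used the counts.

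Genes were named by matching sequence names to the Ensembl annotation of WBcel235, whose gene spans give all coordinates. Groups and replicate numbers came from titles. The labels do not name separate cultures within a group, and p-values therefore reflect sample-to-sample spread that may be technical. No 2 samples of a group agreed within sampling noise (chi-square per degree of freedom 6.71 to 15.1).

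edgeR 4.0.16 in R 4.3.3 was used (TMM, default expression filter, quasi-likelihood test, Benjamini-Hochberg over 13252 genes, 4 against 4 samples), after testing on simulated data. SE is the log2 fold change over the square root of F. Same-numbered samples correlated in their deviations from group means (0.342, 0.205, 0.242 and 0.185), each best with its own number, so by a limit of 0.1 the numbers pair the samples. Alternatives were DESeq2 1.42.0, limma-voom (3.58.1), other scaling, filters (none, or 5 CPM in 4 samples), the replicate block, detrending (a regression of log2 fold change on natural splines of length and level, subtracted), and leaving out each sample. The genes named are all 10 members, mtch-1, each changed gene of the lists, and nhr-49, nhr-80, sbp-1, mdt-15 and elo-6; others were chosen after their values were seen. Members and lists were chosen with earlier results of these data known.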

Additional observations from a re-analysis of the deposited data

How the results depend on the processing

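fat-3, fat-7, elo-2, elo-5 and mtch-1 kept their calls under all 16 alternatives. The number of the 10 genes that fell was 3 after detrending, and 5 to 7 over the analyses that left out 1 sample. The number that rose was 2 with upper quartile scaling, the stricter count filter, the replicate block or detrending, and 1 to 2 without 1 sample. Over all tested genes, 1400 fell after detrending and 1219 to 1632 without 1 sample. Those that rose numbered 1361 to 1983 under the settings just named and 1011 to 1261 without 1 sample. fat-4, never called, turned sign with upper quartile scaling (0.01), the stricter filter (0.03), detrending (0.09), and without EV replicate 2 (0.02) or 4 (0.01) or mtch-1(RNAi) replicate 2 (0.01) or 3 (0.00), with -0.04 to 0.02 over all 8 such analyses. nhr-80 turned without EV replicate 1 (-0.22 to 0.01 over the 8). The replicate block moved the list genes that fell to 14 and those that rose to 3. The latter numbered 2 with upper quartile scaling, the stricter filter or detrending, 0 with no count filter and 0 to 1 without 1 sample. The block ended no call among the genes named. It added fat-1, fat-5, elo-6, cytb-5.2, tcer-1, acs-1, cept-1, pcyt-1 and acs-22 among them. Differences in the 5 within-sample ratios, recomputed without each sample as chosen after seeing the data, kept their sign. The causes of these shifts were not tested. Of the 10 genes, fat-7 had the fewest reads, at 46 to 230 per sample.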
